A study of Homo sapiens with 5 samples.

Results

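The ubiquitin-specific proteases (USPs) are the largest family of deubiquitinases, enzymes that remove ubiquitin from proteins. They share a cysteine protease domain and differ in the sequences around it, which direct them to substrates, complexes and compartments. USP28 is a member that stabilizes MYC, and USP25 is its closest relative. Genes were taken by symbol, as USP followed by a number with or without a final X, and USP28 and USP25 were left out. Of the 12468 genes listed in any of the 3 deposited tables, 44 met this rule, 42 of them in the table of USP28-Ctrl and USP28-KO cells and all 44 in the tables of the reconstituted cells.

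RNA sequencing covered 5 conditions of HLF, an established human hepatocellular carcinoma line, with 1 listed sample for each. USP28-Ctrl cells carry a control guide RNA (sgCtrl). USP28-KO cells carry a guide RNA against USP28 (sgUsp28), delivered with Cas9, and the study shows a control and a knockout clone by sequencing, so a clone limits each genotype as a model. The other conditions are USP28-KO cells transduced with lentiviral pRRL vectors, namely the control vector (pRRL-Ctrl), wildtype USP28 (pRRL-Usp28-WT, USP28-WT) or the monomeric allele (pRRL-Usp28-Mono, USP28-M), and all 3 therefore share the knockout background. The deposited tables hold, per gene, an average log2 CPM (CPM, reads of a gene scaled to a common library size) over the libraries of each fit. These averages are the authors' values and carry no spread between libraries. The average of the first table mixes USP28-Ctrl with USP28-KO, and the average of the reconstituted cells, given alike in the USP28-WT and the USP28-M table, mixes their 3 conditions. The authors' own fold changes and p-values were not used here, so whether any USP gene responded to the loss or the return of USP28 was not tested. What follows describes which USP genes were listed in HLF cells and at which level.

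The steps between the lowest average CPM values give a total of about 7700000 reads for the first fit and about 30470000 for the second, summed over libraries. Read numbers given below come from these steps and have 95% Poisson intervals, which cover counting error only. The prior count that edgeR adds is included in them and was not removed. It weighs most for genes with few reads. Most markers of the labelled cell type, liver, had no row. Of 10 hepatocyte markers, 1 was listed for USP28-Ctrl and USP28-KO, the fibrinogen gene FGB at percentile 66.6 of all genes, and 3 were listed for the reconstituted cells, with FGB at percentile 21.9. ALB, APOA1, APOB, TTR, TF, HNF4A and AFP had no row in any table. The keratin genes KRT8 and KRT18 (11.18 and 10.66) and the mesenchymal gene VIM (11.71) were high in the first table, EPCAM and CDH1 had no row, and of 3 leukocyte markers PTPRC and CD3E had none while CD68, which is also a lysosomal gene, stood at 6.86.

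USP genes lay close to the middle of the HLF transcriptome. In the table of USP28-Ctrl and USP28-KO their median average log2 CPM was 5.38, against 5.33 over all 11102 genes, and 21 of 42 were above that median. In the reconstituted cells the median of 44 USP genes was 5.05, against 4.90 over all 12342 genes, and 25 were above it. Their transcripts are long, with a median of 5163 bases for the longest protein-coding transcript of each of the 44 genes, against 3532 bases for all genes of the first table. Per kilobase of that transcript, the median USP gene had an average CPM of 7.94 in the first table, at percentile 36.9 of all genes, where the median gene had 12.1. The range was wide. The highest gene, USP22, was 70.9 times as high per kilobase as the lowest, USP6, and USP22, USP5 and USP14 together held 28.6% of the summed level per kilobase of the family.

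**Figure D1:**
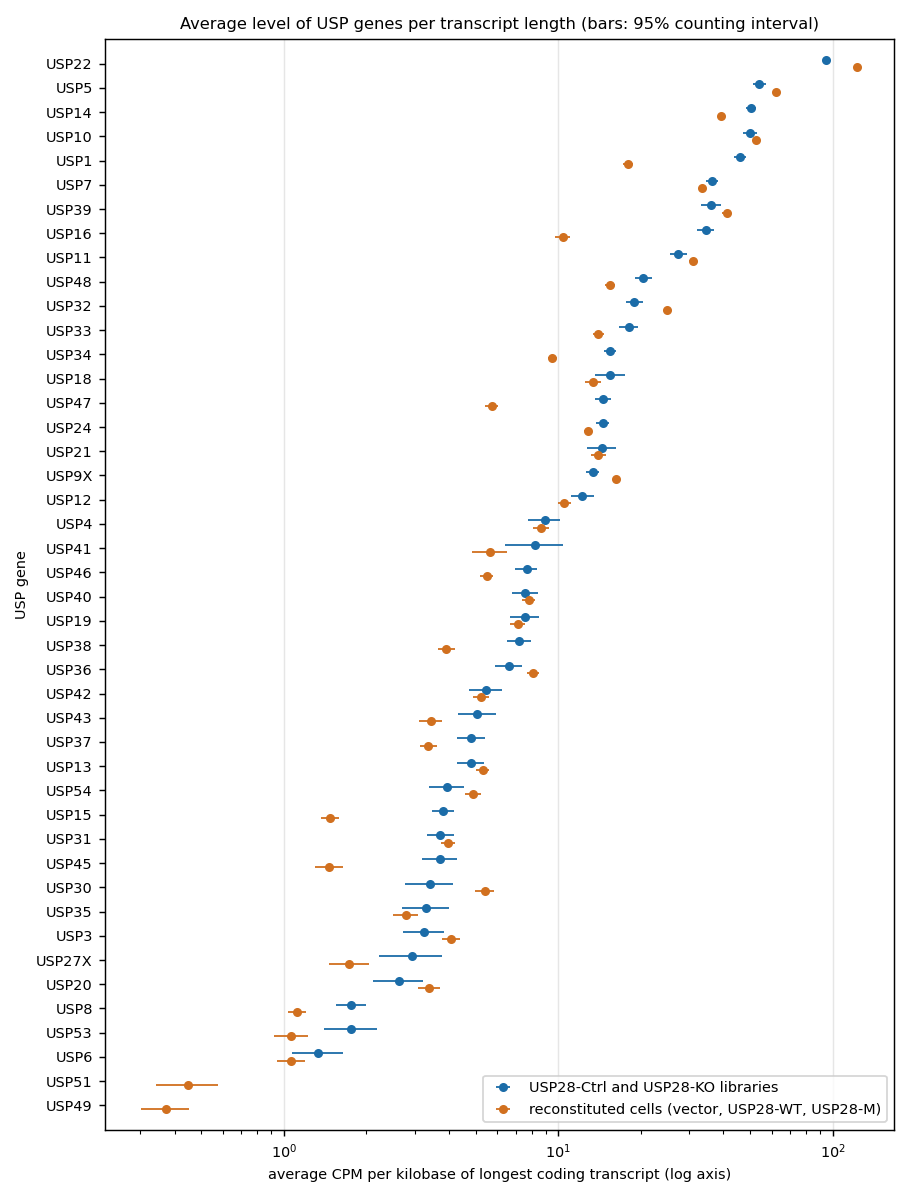
Average CPM per kilobase of the longest protein-coding transcript (log axis) for each USP gene, in USP28-Ctrl and USP28-KO libraries (blue) and in reconstituted cells (orange), with 95% counting intervals and no spread between libraries. USP22 stands at the top of both sets (94.8 and 122), and USP51 and USP49 at the bottom have a value in the reconstituted cells only.

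USP22 was the most abundant family member on both scales. It is the catalytic subunit of the deubiquitinase module of the SAGA coactivator complex, removes ubiquitin from histones and has been reported to act on MYC. Its average log2 CPM was 8.95 in USP28-Ctrl and USP28-KO, at percentile 97.5 of all genes and corresponding to 3810 reads (3690 to 3933), and 9.32 in the reconstituted cells, at percentile 98.4. The counting intervals of USP22 overlapped with those of no other USP gene per kilobase. The 250 bases upstream of the RefSeq start of USP22 (GRCh38.p14, minus strand, chr17:21043012-21043261) are shown because this is the promoter of the highest member, with each CpG in capitals. They contain 36 CpG and 76.8% G and C, and 95.1% of all promoters in the RefSeq set held fewer CpG over the same length. USP12, at 12.2 CPM per kilobase in the first table, had 37 CpG. The starts of USP6, the lowest gene per kilobase there, had 26 and 7. A link between CpG number and level was not tested.
USP22: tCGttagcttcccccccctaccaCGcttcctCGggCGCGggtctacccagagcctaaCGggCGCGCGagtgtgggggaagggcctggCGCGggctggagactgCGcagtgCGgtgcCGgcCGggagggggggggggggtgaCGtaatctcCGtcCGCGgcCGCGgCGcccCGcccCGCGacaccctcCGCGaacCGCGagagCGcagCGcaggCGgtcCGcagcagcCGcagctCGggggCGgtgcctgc

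The other genes listed here as reported to act on MYC stood at a far lower level than USP22. The list was chosen for this report and is not a full survey of the family. USP36, a nucleolar protease, had an average log2 CPM of 5.32 in USP28-Ctrl and USP28-KO and of 5.62 in the reconstituted cells. USP37, which is also known as a cell cycle regulator, stood at 5.27 and 4.76, and USP13, a relative of USP5, at 5.32 and 5.47. Per kilobase these genes had 6.60, 4.81 and 4.81 in the first table, where USP22 had 94.8, and the counting intervals of USP37 (4.28 to 5.39) and USP13 (4.29 to 5.38) overlapped nearly completely. For comparison, USP28 itself stood at an average log2 CPM of 5.15 (7.60 per kilobase) and USP25 at 5.77 (10.2 per kilobase) in the first table. In the reconstituted cells USP28 was at 9.79, which includes the lentiviral transcript, and USP25 at 4.85.
MYC binds the E-box CACGTG, and this motif, which reads the same on both strands, was searched in the 250 bases upstream of RefSeq starts. The set held 47 promoters for 34 of the 44 USP genes, and 2 of them (4.26%) contained the motif, against 6.34% of all 35116 promoters and 8.31% of those of the genes in the first table. Of the 4 genes listed as reported to act on MYC, USP37 had no promoter in the set and was not searched. Among the other 3, USP36 contained the motif, starting 27 bases before a RefSeq start. The stretch below (GRCh38.p14, minus strand, chr17:78840815-78840868) is shown because it joins a regulator of MYC with a MYC-type motif, which is in capitals. The other match was upstream of a start of USP6. A match is a run of letters and does not show binding.
USP36: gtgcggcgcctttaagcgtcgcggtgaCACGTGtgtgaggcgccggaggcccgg
CpG-rich starts were common in the family. The median USP promoter held 24 CpG in 250 bases, against 21 for the genes of the first table and 11 for all promoters.

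Among the histone-directed members, levels spread over nearly the whole range of the family. Of 9 listed genes of this kind, 6 had a row in the first table and 8 in the tables of the reconstituted cells. USP22 and its relatives USP27X and USP51 belong to this group, and the relatives were scarce. USP27X had an average log2 CPM of 2.94 in USP28-Ctrl and USP28-KO, the lowest of the 42 genes on this scale, corresponding to 59.1 reads (45.0 to 76.2), and 2.18 in the reconstituted cells. USP51 had no row in the first table and stood at 0.98 in the reconstituted cells, with 60.1 reads (45.9 to 77.3). Since these genes are close in sequence, some of their reads may have been assigned to a relative. The partners of USP22 in the SAGA module were listed in both sets, with ATXN7L3 at 6.36, ENY2 at 5.88 and ATXN7 at 4.65 in the first table.
USP7, which acts on p53, MDM2 and several chromatin proteins, was high at 7.62 and 7.50. USP16, a histone H2A deubiquitinase, stood at 6.70 and 4.96, and USP3, which acts on the same histone, at 4.14 and 4.48. USP21 was at 5.08 and 5.04. USP49, a histone H2B deubiquitinase, appeared in the reconstituted cells alone, at 1.75 with 102 reads (83.4 to 124). The second fit has more reads and a lower floor, 0.40 against 1.70, so absence from the first table does not show a lower level there. USP44, which acts on histone H2B as well, had no row in any table, and neither had USP2, USP26, USP29 or USP50.

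Of the 3 genes listed for unanchored ubiquitin chains and the proteasome, USP5 and USP14 were among the highest and USP13, given above, was near the median gene (percentile 49.8). USP5, which takes apart unanchored ubiquitin chains, had an average log2 CPM of 7.43 and 7.62, and USP14, which is bound to the proteasome, 7.96 and 7.59. In the first table USP5, USP14 and USP10 followed USP22 per kilobase, at 54.0, 50.4 and 50.1, and their counting intervals overlapped, so that these genes have no order among themselves. USP10, with roles in p53 control and stress granules, stood at 7.23 and 7.31.
Among the partners of WDR48, a repeat protein that activates them, USP1, which deubiquitinates PCNA and FANCD2 in DNA repair, was the highest, at 7.52 in the first table and 6.17 in the reconstituted cells. USP12 stood at 5.79 and 5.57 and USP46 at 5.93 and 5.45. Per kilobase USP1 had 46.0, USP12 12.2 and USP46 7.66 in the first table, with no overlap of their counting intervals. These intervals do not cover the choice of transcript length. With the median length over coding transcripts USP1 had 83.5, USP12 77.5 and USP46 13.2. WDR48 was at 4.25 and its co-factor WDR20 at 4.51.
USP4, USP11 and USP15, which share an N-terminal DUSP and ubiquitin-like architecture, had average log2 CPM values of 4.84, 6.59 and 5.83 in the first table. They stood at 4.80, 6.77 and 4.46 in the reconstituted cells, so that USP11 was the highest of them in both sets. By average log2 CPM, the order of USP4 and USP15 was not the same in both sets. Per kilobase of the longest coding transcript, USP4 was above USP15 in both. The values were 8.92 against 3.81 in the first table and 8.64 against 1.47 in the reconstituted cells. With the median length over coding transcripts this order was reversed, at 13.4 against 71.7 and 13.0 against 27.7.

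Of the members tied to membranes, USP8, an endosomal protease for receptor sorting, stood at 5.07 and 4.41, USP19, which has an isoform anchored to the endoplasmic reticulum, at 5.15 and 5.07, and USP30, which sits on mitochondria and limits mitophagy, at 3.67 and 4.33. USP8 illustrates how much a level per length depends on the transcript, since its longest coding transcript spans 19026 bases and the median over its coding transcripts is 1568 bases. With these lengths it had 1.76 or 21.4 CPM per kilobase in the first table.
USP18, the protease of the interferon-induced modifier ISG15, stood at 5.04 and 4.83, and its partial copy USP41 at 3.14 and 2.60. Reads of these genes are hard to separate, as are those of USP6 (3.50 and 3.17) and USP32 (6.61 and 7.01), from which the hominid gene USP6 was in part derived.
Of the members long classed as lacking deubiquitinase activity, USP39, a splicing factor, was high, at 6.29 and 6.49. USP54 stood at 4.61 and 4.93 and USP53 at 3.42 and 2.69. USP53 was the second lowest gene per kilobase in the first table, with 1.76, and its counting interval (1.40 to 2.18) overlapped with those of USP8 and USP6.
The large members USP9X (7.37 and 7.65), USP34 (7.46 and 6.76) and USP24 (7.26 and 7.08) were above percentile 75 of all genes by average log2 CPM in both sets. Per kilobase they had 13.3, 15.4 and 14.5 in the first table, close to the median gene. USP47 (6.83 and 5.48), a protease of DNA polymerase beta, USP48 (6.55 and 6.15), USP33 (6.35 and 5.98), USP38 (5.65 and 4.78), USP40 (5.43 and 5.47) and USP31 (5.31 and 5.41) lay between 5 and 7 in the first table. USP42 (4.81 and 4.76), USP45 (4.53 and 3.20), USP43 (4.40 and 3.84), USP35 (3.80 and 3.56) and USP20 (3.55 and 3.91), a relative of USP33, were lower. Over the whole order per kilobase, the counting intervals of 34 of 41 neighbouring pairs overlapped in the first table and those of 28 of 43 in the reconstituted cells. The order also depends on the transcript length used. With the median length over coding transcripts, USP15 went from 3.81 to 71.7 CPM per kilobase, USP36 from 6.60 to 41.7 and USP54 from 3.92 to 40.8, and 6 of the 10 highest genes stayed among the 10 highest.

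Set beside genes of the other deubiquitinase families, the USP genes were in the middle as well. These lists go by family or domain and not by enzyme activity. Of 39 listed genes of the UCH, OTU, Josephin, JAMM, MINDY and ZUP1 families and of USP-domain genes with other symbols, 36 had a row in the first table, with a median of 7.58 CPM per kilobase, against 7.94 for the 42 USP genes. The family medians were 26.3 for 4 UCH genes, 25.8 for 3 Josephin genes, 14.8 for 8 JAMM metalloproteases, 4.87 for 13 OTU genes, 4.37 for the 3 USP-domain genes CYLD, PAN2 and USPL1, and 3.37 for 5 MINDY and ZUP1 genes. No test was run on these differences, because each gene has 1 average and no spread.

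The levels of the USP genes were then set side by side between both sets of tables. The sets were normalized separately, hold other conditions and may differ in handling, so a difference between them cannot be told apart from a difference between experiments and was not tested. Over the 42 genes in both, the average log2 CPM values of the sets had a Pearson r of 0.932 and a Spearman's rho of 0.920, as a description across genes, and over all 10976 shared genes these were 0.939 and 0.934. The median difference, reconstituted cells minus USP28-Ctrl and USP28-KO, was -0.20 for the USP genes and -0.12 for all genes, and 5% of all genes were below -1.24 and 5% above 0.67. For 32 of the 42 USP genes the difference was larger than the half-width of its counting interval. The same count was not made over all genes, so whether 32 of 42 is more or less than their share is not known. Over all genes the differences had quartiles of -0.50 and 0.20.

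**Figure D2:**
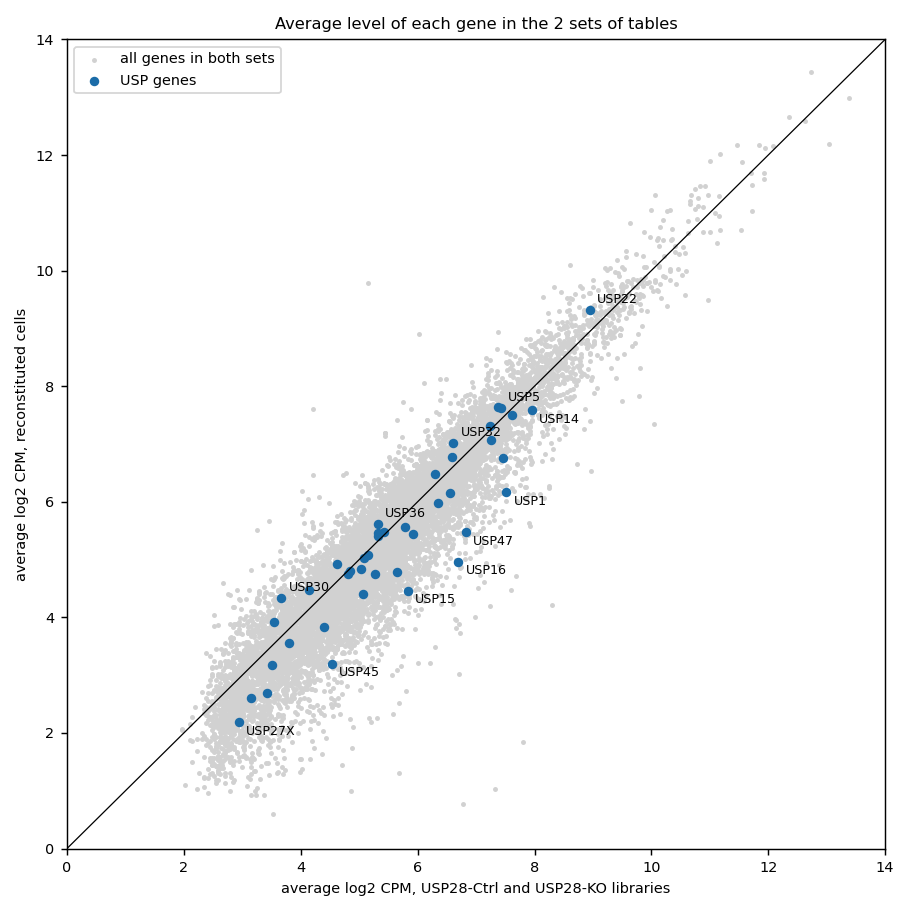
Average log2 CPM of each gene in USP28-Ctrl and USP28-KO libraries (x axis) and in reconstituted cells (y axis), with all 10976 shared genes in grey, 42 USP genes in blue and the line of equal values. USP16, USP15, USP1, USP47 and USP45 lie more than 1 log2 unit below the line, and no USP gene lies as far above it. Over all shared genes the 95th percentile of the difference was 0.67.

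Of the 42 genes, 5 (11.9%) were lower by more than 1 log2 unit in the reconstituted cells, against 9.02% of all genes, and 0 were higher by more than 1. Few genes of any kind were that much higher, since the 95th percentile of the difference over all genes was 0.67. USP16 had the largest difference, -1.73, followed by USP15 (-1.37), USP1 (-1.35), USP47 (-1.35) and USP45 (-1.34). The half-width of the counting interval was at most 0.28 for these genes, smaller than each difference. USP30 had the largest difference in the other direction, 0.66, then USP32 (0.40), USP22 (0.37) and USP20 (0.36). USP21 (-0.04), USP40 (0.04), USP4 (-0.04), USP42 (-0.06) and USP10 (0.07) differed least between the sets.
Differences ran with base composition. The 5 genes lower by more than 1 have transcripts with 36.5% to 41.6% G and C. The 15 USP genes under 42% had a median difference of -0.70, and the 13 over 50% had one of -0.04. All genes showed the same order, with medians of -0.59 under 42% and 0.08 over 50%. Across the 42 USP genes the difference and the GC content of the transcript had a Pearson r of 0.552 and a Spearman's rho of 0.560, and across the 10351 genes with a known transcript these were 0.431 and 0.488. Members of like composition still differed from each other. USP9X, with 40.5% G and C, was higher by 0.28 in the reconstituted cells, and USP12 (38.7%) and USP14 (38.1%) differed by -0.22 and -0.37. The part of base composition in these differences was not tested.

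**Figure D3:**
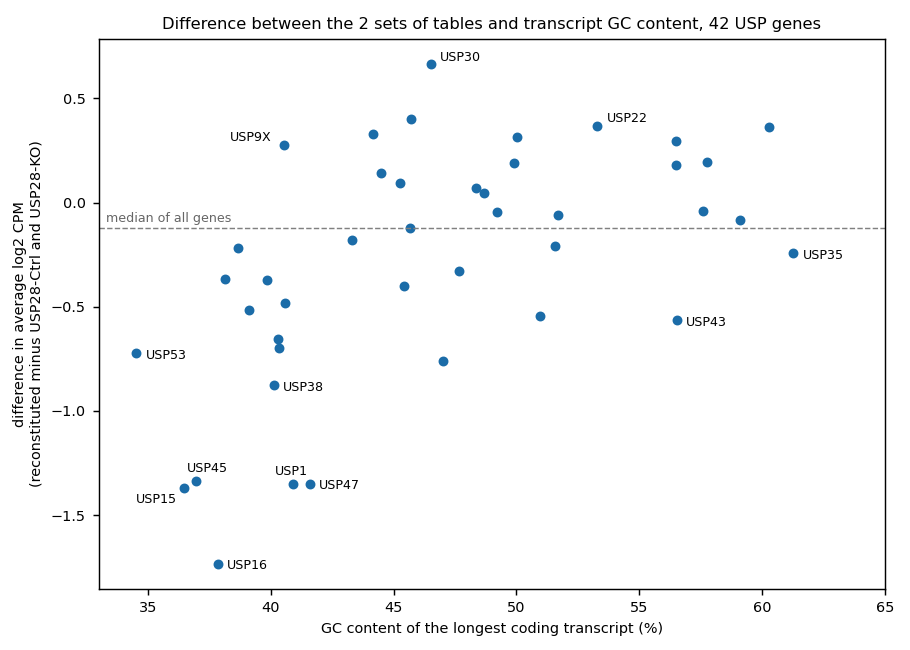
Difference in average log2 CPM between the sets of tables (reconstituted cells minus USP28-Ctrl and USP28-KO) against the GC content of the longest protein-coding transcript in percent, with 1 point per USP gene and a dashed line at the median of all genes (-0.12). The genes lower by more than 1 all lie at the AT-rich left, where USP9X lies above the line.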

How the data were processed

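HLF cells of 5 conditions were profiled by RNA sequencing of total RNA. Per the submitters' processing notes, the authors used bcl2fastq 2.20, STAR 2.5.4 and edgeR 3.26.8 with the hg19 build. Counting, filtering and the number of libraries per fit are not given in the sources used here. The deposited log2 values are the authors' average log2 CPM per gene over the libraries of a fit. The tables also hold the authors' fold changes, p-values, adjusted p-values and, for the reconstituted cells, F statistics, which were not used. In the table of USP28-KO and USP28-Ctrl the header stands 1 column left of its values, and the average was read from the column where it lies.

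Genes were matched to GENCODE release 29 transcripts by NCBI gene ID, which covered 93.9% and 91.4% of the genes of the sets and all USP genes. Length and GC content are those of the longest protein-coding transcript, in GRCh38, and no genome position was carried between builds. CPM is 2 to the power of the deposited value. The read step was fitted to the 400 lowest genes. Of these, 99.5% in the first table and 83.0% in the second set were no more than 0.1 reads away from a whole count. The step finder was tested on simulated libraries of assumed number and near-equal size. Their average CPM was a ratio of summed counts, and the average as edgeR computes it was not simulated. Promoter sequences were taken from RefSeq (GRCh38.p14).

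The named genes were those listed as reported to act on MYC, the partners of WDR48, and the members long classed as lacking deubiquitinase activity. The 5 highest and 5 lowest per kilobase, genes listed in 1 set only, and each other member by role were named as well. A further part of the rule, likeness to the USP28 protein, could not be applied, since protein sequences were not used here. The members and lists were chosen with earlier results of these data known. The alternatives were an average log2 CPM floor of 3, the other set of tables, and other transcript lengths. Values were computed with Python 3.11.15, numpy 2.4.6, pandas 2.3.3 and scipy 1.17.1, and plots with matplotlib 3.10.9.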

Additional observations from a re-analysis of the deposited data

How the results depend on the processing

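The number of USP genes listed was 42, and 41 at or above a floor of 3 on the log2 scale. The median level of the USP genes, 5.38, moved to 5.05 in the tables of the reconstituted cells and was 5.43 with the floor of 3. The percentile of that median among all genes, 51.2, was 36.9 per kilobase of transcript and 52.8 in the reconstituted cells. Of the 10 highest genes per kilobase, 6 stayed among the 10 highest with the median length over protein-coding transcripts, 8 in the reconstituted cells and 10 with the longest transcript paired with a RefSeq mRNA, an alternative chosen after seeing the data. For 37 of the 42 genes the RefSeq transcript is as long as the longest one, so that alternative could move few values. The median length is short where many partial transcripts are annotated. Of 17 named genes, the level per kilobase left its counting interval for 11 with the median length, for 15 in the reconstituted cells and for 0 with the RefSeq length. No paired analysis was possible because each condition has 1 listed sample and each value is an average over conditions. For the same reason no library could be left out, and no spread between libraries, no test and no answer on a response to USP28 can be given from these averages.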

Other observations

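In USP28-Ctrl and USP28-KO the highest gene of the listed deubiquitinase families was not a USP but UCHL1. In the reconstituted cells the transduced gene USP28 (9.79) was above UCHL1 by average log2 CPM. Per kilobase USP28 was below it there, at 189 against 630. UCHL1, a ubiquitin hydrolase best known from neurons, had an average log2 CPM of 9.79 in USP28-Ctrl and USP28-KO and of 9.53 in the reconstituted cells, at percentiles 99.1 and 98.8 of all genes, and 756 CPM per kilobase in the first table, where USP22 had 94.8. Among the JAMM metalloproteases, the proteasome subunit PSMD14 stood at 92.1 per kilobase and COPS5, the catalytic subunit of the COP9 signalosome, at 36.8. OTUB1 was the highest OTU gene, at 49.7. Each of these values is an average over libraries with no spread, and no comparison between conditions was made.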
